A study of Mus musculus with 12 samples.

Results

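Cytosolic ribosomal protein genes were described in RNA sequencing data from the subcortical white matter of 12 mice. Members were the loci whose gene symbol follows the nomenclature of the proteins of the small subunit (Rps and Rpsa) or of the large subunit (Rpl and Rplp), without pseudogenes named with the suffix -ps, and a symbol with several loci was read from the locus with the highest mean. This gave 86 genes of 30997 symbols, 35 for the small and 51 for the large subunit. Of these, 77 encode the standard proteins of the cytosolic ribosome (called canonical here), 6 are paralogues (Rpl3l, Rpl22l1, Rpl39l, Rps27l, Rpl7l1 and Rps4l) and 3 are further copies (Rps3a2, Rps3a3 and Rpl6l). Cytosolic ribosomal proteins with other symbols, such as Fau and Rack1, fall outside the rule and were treated as a separate list.

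The cytosolic ribosome translates nuclear messenger RNAs, and its proteins are made in matched amounts because each is present in a single copy per particle, apart from the acidic stalk proteins. Most of their messenger RNAs begin with a run of pyrimidines, the TOP motif, through which mTORC1 signalling controls their translation. Oligodendrocytes, the myelin-forming cells of white matter, make large amounts of protein and membrane while myelin is laid down, and ErbB receptors are tyrosine kinases upstream of mTORC1 and ERK.

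The series asked how white matter responds when ErbB receptors are activated or inhibited in oligodendroglial cells. The dnEGFR mutants carried Sox10-tTA and TRE-dnEGFR, that is, a tetracycline transactivator under Sox10 control and a responder for dominant-negative EGFR, and the dnEGFR controls were littermates with the responder alone. Both received doxycycline from postnatal day 21 and were sampled at day 35. The ErbB2V664E mutants carried Sox10-tTA with TRE-ErbB2V664E, a responder for an activated form of the receptor ErbB2, and their littermate controls carried that responder alone. These mice were treated from day 21 and sampled at day 30. Each group had 3 mice with 1 library each. The labels do not state if the drug turned the responders on or off, and no group had the transactivator without a responder. In bulk tissue, fewer cells of a type and less RNA per cell cannot be told apart.

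Values are FPKM, fragments scaled to transcript length and to the mapped fragments of the library, so levels of different genes are on a per-length scale. Summed over loci, a library held 117363 to 134410 FPKM, and an estimated 16596867 to 24739580 fragments stood behind each. For a typical ribosomal protein transcript of 600 bases, 10 FPKM then corresponded to 99.6 to 148 fragments. All 10 oligodendrocyte markers were present in every group, with summed levels of 731 to 1954 FPKM, and so were all 9 neuron markers, with sums of 424 to 692 FPKM. Replicate libraries of a group correlated at 0.9097 to 0.9262 on the log2(FPKM + 1) scale, over the 13803 loci with at least 1 FPKM in 3 libraries.

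Canonical members were abundant, with means over the 12 libraries from 6.77 to 168 FPKM and a median of 28.9 FPKM. The 5 highest were Rps3a1, a protein at the mRNA exit side of the small subunit, with 130 to 209 FPKM, Rps15, Rpl4, which lines the exit tunnel, Rpl41 and Rps24, with means of 168, 163, 140, 99.0 and 92.4 FPKM. Rpl41 encodes a very short peptide of the large subunit.

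The 5 lowest members were not canonical. Rpl39l was at 0 to 0.157 FPKM, Rpl3l, known from muscle, at 0.109 to 0.438 FPKM, Rps4l at 0 to 1.21 FPKM, Rps3a3 at 0 to 4.17 FPKM and Rps27l at 2.25 to 8.17 FPKM. The first 3 did not reach 1 FPKM in 3 libraries and were not tested, which left 83 tested members, including all 77 canonical ones. Rpl10l was not analysed here. Rps3a2, Rps3a3, Rpl6l, Rps4l and Rpl39l were listed at 0 in some libraries. Rps3a2 was at 17.8, 22.4 and 22.6 FPKM in dnEGFR controls, 22.2, 0 and 23.3 in dnEGFR mutants, 0, 16.0 and 15.9 in ErbB2V664E controls and 11.6, 18.9 and 0 in ErbB2V664E mutants. The zeros of Rps3a2 thus fell in 3 libraries of 3 different groups. Rpl6l was at 0, 0 and 9.65 FPKM in dnEGFR controls, 0, 0 and 12.9 in dnEGFR mutants, 6.41, 7.41 and 8.45 in ErbB2V664E controls and 5.85, 0 and 8.37 in ErbB2V664E mutants. An exact 0 can be a failed assignment among near-identical copies, so the changes of these genes given below rest on which libraries are listed at 0 and are not read as changes in level.

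The 86 members together took 2.80, 3.00 and 3.24% of the summed FPKM in the dnEGFR controls (3.01 ± 0.222, SD, n = 3) and 3.17, 3.02 and 3.26% in the dnEGFR mutants (3.15 ± 0.125). In the ErbB2V664E line they took 1.66, 1.61 and 1.82% in controls (1.69 ± 0.109) and 1.63, 1.77 and 1.82% in mutants (1.74 ± 0.0954). Mutants and controls overlapped within each line, while all 6 libraries of the dnEGFR line lay above all 6 of the ErbB2V664E line. The small subunit took 1.38 ± 0.103% and 1.45 ± 0.0632% in dnEGFR controls and mutants and 0.781 ± 0.0461% and 0.798 ± 0.0298% in the ErbB2V664E groups (SD, n = 3 each). The large subunit took 1.63 ± 0.120%, 1.70 ± 0.0629%, 0.913 ± 0.0633% and 0.942 ± 0.0753% in the same order, so both subunits showed the same pattern.

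**Figure D1:**
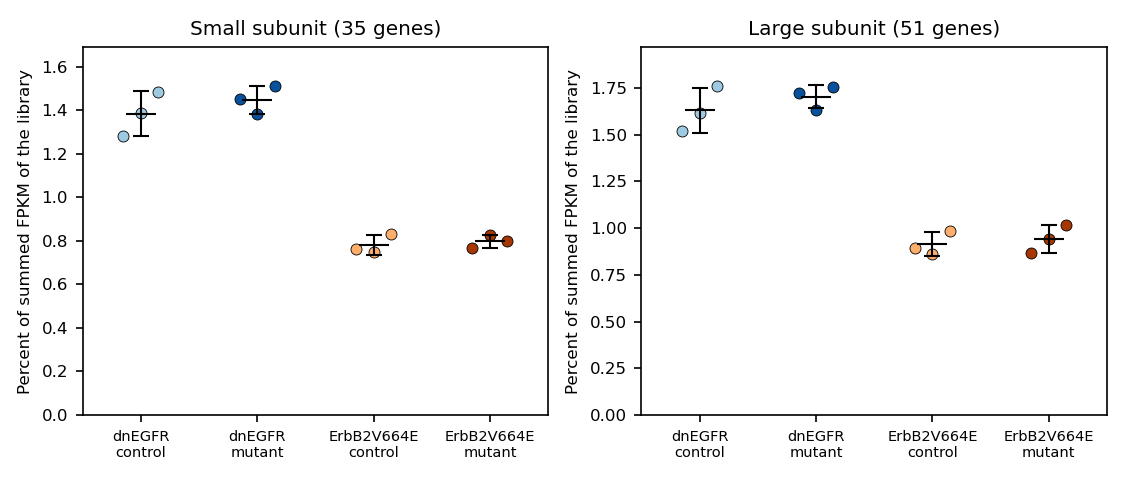
Share of the summed FPKM of each library taken by small-subunit (left) and large-subunit (right) ribosomal protein genes; points are libraries, horizontal lines the group mean and bars ± 1 SD (n = 3). Mutants overlap their littermates in each line, and the dnEGFR line is the higher of the pair for both subunits.

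In the dnEGFR line, no ribosomal protein gene passed the test between mutants and littermates. With limma on log2(FPKM + 1) and Benjamini-Hochberg adjustment over all 13803 tested loci, 0 of 83 members were called at an adjusted p of 0.05, where 13 loci (0.0942%) were called in all, 0.058% higher and 0.0362% lower in mutants. At an unadjusted p under 0.05 there were 7 members, 6 of them higher in mutants, beside 5.69% of all loci. The median log2 change of the members was 0.08, beside 0.01 for all loci, and 65 members had positive and 18 negative values, where 51.4% of all loci were positive. Without dnEGFR control 1 the median of the members was 0.0002. The groups did not overlap for 9 members, 8 higher and 1 lower in mutants, beside 10.1% of all loci (5.58% higher and 4.57% lower). Canonical members ranged from -0.41 to 0.69, and the 95% interval of 75 of the 77 stayed within 1 on the log2 scale, that is, within a 2-fold change. For 55 it stayed within 0.5, with a median half-width of 0.26.

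Rpl26, which sits beside the exit of the nascent chain tunnel, had the largest canonical change in the dnEGFR line, 0.69 (SE 0.26, limma adjusted p = 0.812). It was at 46.6, 49.8 and 110 FPKM in the controls and 101, 102 and 108 FPKM in the mutants, so 1 control lay above all mutants and the others at less than 50 FPKM. Without dnEGFR control 3 the log2 change of Rpl26 was 1.09 and it was called (limma adjusted p = 0.0024), the only member call in the comparison under any library left out.

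Of the other members with large changes in the dnEGFR line, Rps28, a small protein at the mRNA exit, was at 7.32, 10.3 and 12.4 FPKM in controls and 12.9, 15.9 and 13.8 FPKM in mutants (log2 change 0.49, SE 0.19). Rpsa, the laminin receptor protein of the small subunit, was at 52.1, 59.7 and 64.0 FPKM against 87.8, 77.9 and 67.3 FPKM (0.40, SE 0.16). Rpl22, an RNA-binding protein of the large subunit, was at 10.6, 9.97 and 12.9 FPKM against 7.38, 8.63 and 8.85 FPKM (-0.39, SE 0.15). The mutants lay above all controls for Rps28 and Rpsa and below all controls for Rpl22, with limma adjusted p of 0.812, 0.836 and 0.812. Rplp1, an acidic stalk protein that recruits translation factors, had -0.41 (SE 0.55), because dnEGFR control 1 held 117 FPKM beside 41.2 and 46.2 in the other controls and 43.6 to 47.0 in the mutants. Rps3a2 had the largest value of any member, -1.40, which rests on the mutant library in which it was listed at 0.

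In the ErbB2V664E line as well, 0 of 83 members were called by limma after Benjamini-Hochberg adjustment, where 38 loci (0.275%) were called, 0.138% in each direction. At an unadjusted p under 0.05 there were 6 members, 5 of them higher in mutants, beside 12.1% of all loci. The median log2 change of the members was 0.05, beside 0.00 for all loci, with 55 positive and 28 negative values, where 50.8% of all loci were positive. The groups did not overlap for 13 members, 10 higher and 3 lower, beside 18.2% of all loci (9.28% higher and 8.96% lower). Canonical members ranged from -0.34 to 0.50, the 95% interval of 76 of them stayed within 1 on the log2 scale and that of 54 within 0.5.

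The lowest adjusted p of the ErbB2V664E comparison was 0.257, for Rpl14 of the large subunit (limma, Benjamini-Hochberg). Rpl14 was at 24.7, 27.2 and 27.0 FPKM in controls and 29.6, 34.9 and 33.8 FPKM in mutants, a log2 change of 0.30 (SE 0.10), and the groups did not overlap. Rplp1 had the largest canonical value, 0.50 (SE 0.55), from 31.4, 29.6 and 34.4 FPKM in controls and 27.3, 26.3 and 126 FPKM in mutants. The single high library, ErbB2V664E mutant 3, sets that value, since the other mutants lay below every control. Rpl3, a protein near the peptidyl transferase centre, was at 30.7, 30.6 and 34.1 FPKM in controls and 22.2, 25.7 and 27.2 FPKM in mutants (-0.34, SE 0.15, limma adjusted p = 0.414). Rpl22 was at 6.78, 4.39 and 4.63 FPKM against 7.03, 6.90 and 6.48 FPKM (0.34, SE 0.15, limma adjusted p = 0.399), and its groups overlapped. Rpl7l1, a paralogue of Rpl7 that is known from preribosomes, was at 5.99, 6.16 and 6.53 FPKM against 4.04, 4.86 and 5.12 FPKM (-0.35, SE 0.15, limma adjusted p = 0.373), with all mutants below all controls. Rpl6l and Rps3a3 had values of -1.07 and -0.68 that rest on libraries listed at 0.

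Of the cell type markers in this comparison, 1 of 10 oligodendrocyte markers was called, Mag, which was lower in mutants (log2 change -1.22, limma adjusted p = 0.0449). All 10 had negative values, and their sums were 1212 to 1954 FPKM in ErbB2V664E controls and 731 to 1183 FPKM in mutants. The only other call among the marker lists was Mki67, which was also lower and was the only 1 of 5 dividing cell markers tested. With 0 called, the sums of the 6 astrocyte markers were 185 to 370.3 FPKM in controls and 149 to 170 FPKM in mutants, and those of the 6 precursor markers 19.2 to 22.7 and 61.1 to 77.3 FPKM, although 5 of the 6 single precursor genes had negative values. The 1 precursor gene with a positive value was listed at 0 in all ErbB2V664E controls, so the precursor sums are not read as a change in level. Sums overlapped, also with 0 called, for the 8 microglia (81.9 to 106 and 47.5 to 86.3 FPKM), 5 ependymal (18.4 to 27.6 and 13.6 to 20.7 FPKM) and 5 red cell markers (95.5 to 214 and 22.1 to 118 FPKM). Unadjusted limma p lay under 0.05 for 7 of 10 oligodendrocyte and 4 of 8 microglia markers, beside 12.1% of all loci. The same held for 5 of 5 red cell and 4 of 5 ependymal markers, and every gene of these 2 lists had a negative value. For 5 tested astrocyte, 6 precursor and 9 neuron markers it held for 2 each, and for 5 choroid plexus and 5 endothelial markers for 0. The endothelial sums were 28.5 to 37.4 FPKM in controls and 40.8 to 45.3 FPKM in mutants. Their part in the ribosomal protein values was not tested.

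**Figure D2:**
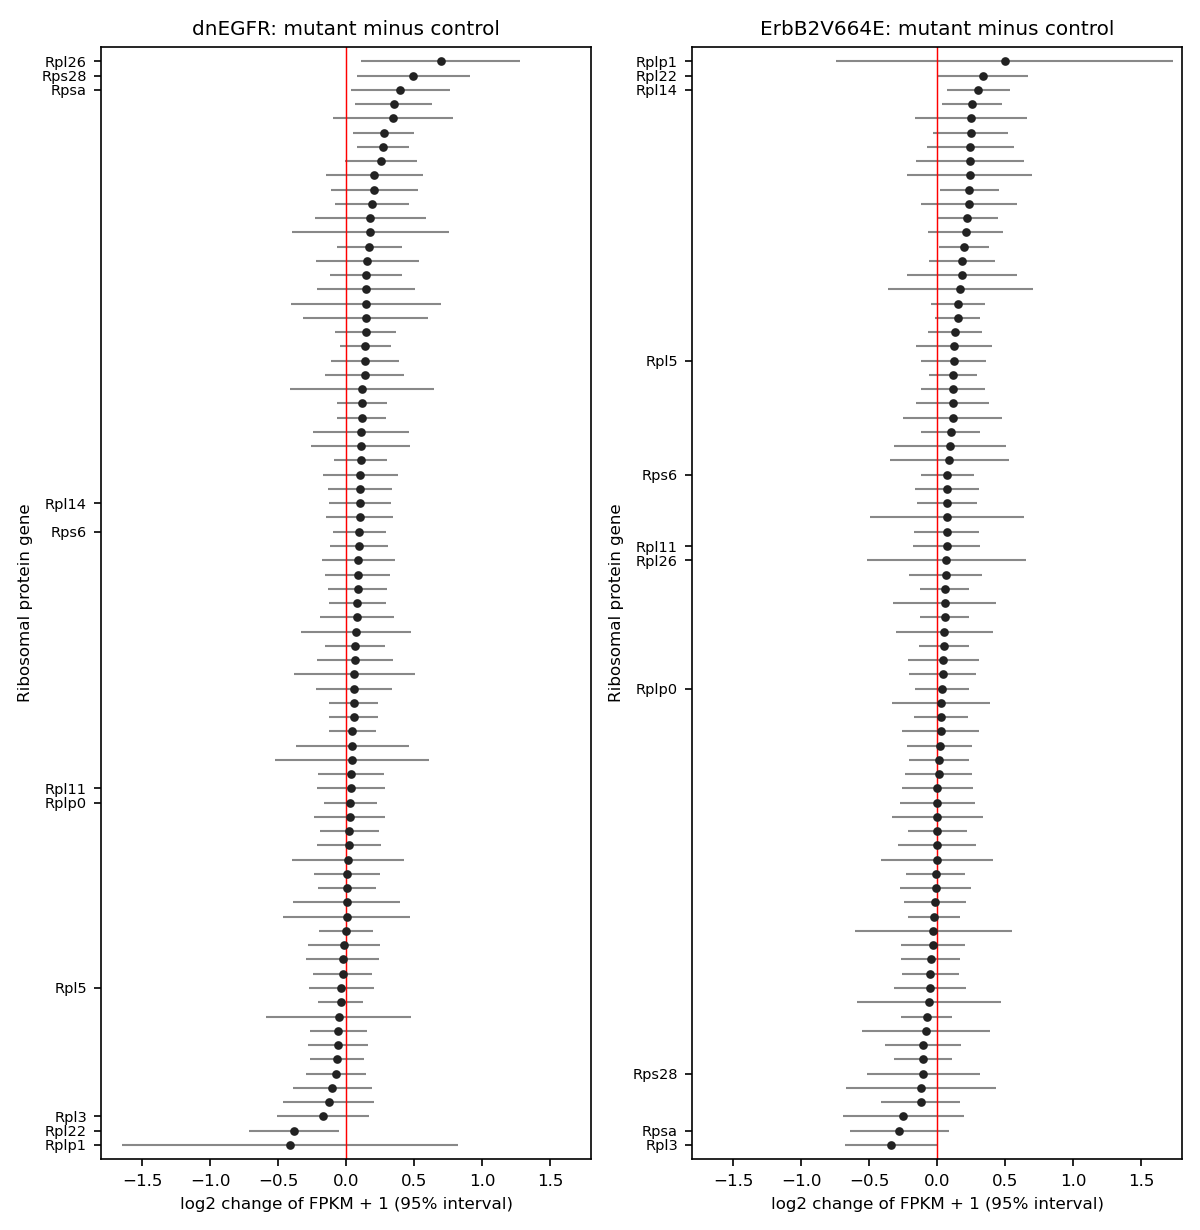
Log2 change of FPKM + 1 between mutants and littermate controls for the 77 canonical ribosomal protein genes in the dnEGFR line (left) and the ErbB2V664E line (right), each ordered by its own values; points are limma estimates, bars 95% intervals, and only some genes described in the text carry a name. Nearly all points lie close to 0, and the widest interval in each panel is that of Rplp1.

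By role, the acidic stalk genes Rplp0, Rplp1, Rplp2 and Rpl12 had 0 of 4 calls in each line. Rplp0, the base of the stalk and a common reference gene, was at 68.0, 72.1 and 73.7 FPKM in dnEGFR controls, 79.3, 68.6 and 70.9 in dnEGFR mutants, 67.7, 67.4 and 76.4 in ErbB2V664E controls and 69.3, 73.6 and 73.4 in ErbB2V664E mutants. Its log2 change was 0.03 in either line, with 95% intervals from -0.17 to 0.23 and from -0.16 to 0.23, though rescaling turned the sign in the ErbB2V664E line. Rps6, the substrate of the S6 kinases downstream of mTORC1, changed by 0.10 and 0.07 (SE 0.09 each). Rpl5 and Rpl11, which with 5S ribosomal RNA form the particle that can bind Mdm2, had -0.04 and 0.04 in the dnEGFR line and 0.12 and 0.07 in the ErbB2V664E line (SE 0.11 each). None of these 3 genes passed the test.

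The difference between the effects in the 2 lines was tested as an interaction, and 0 of 83 members were called by limma (6 at an unadjusted p under 0.05, beside 1244 or 9.01% of all loci), where 16 loci (0.116%) were called, 0.0507% higher and 0.0652% lower. The lowest adjusted p was 0.383, for Rpl22, whose effect was -0.39 in the dnEGFR line and 0.34 in the ErbB2V664E line, a difference of 0.72 (SE 0.21). Rpsa and Rpl7l1 differed the other way, by -0.68 (SE 0.23) and -0.66 (SE 0.21), with limma adjusted p of 0.443 and 0.422.

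The dnEGFR and ErbB2V664E lines themselves differed for most members. This comparison was added after the data had been seen, and transgene, age and length of treatment differ together between the lines, as may anything else handled by line, so they cannot be told apart. Between the controls, 61 of 83 members were called by limma, all 61 higher in the dnEGFR line, where 20.0% of all loci were called (9.12% higher and 10.9% lower). The median log2 difference of the members was 0.64, beside -0.01 for all loci. The groups did not overlap for 73 members, 71 of them higher, beside 41.4% of all loci (19.8% higher and 21.6% lower). Between the mutants, 60 of 83 were called, all 60 higher in the dnEGFR line, where 24.1% of all loci were called (11.4% higher and 12.7% lower), with a median of 0.68. There the groups did not overlap for 71 members, 70 of them higher, beside 40.5% of all loci (20.2% higher and 20.3% lower).

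The controls and the mutants are separate libraries, but they come from the same litters. Of the 77 canonical members, 55 were called in both comparisons, 4 only between controls, 2 only between mutants and 16 in neither. Differences over 2-fold were seen in 20 canonical members between controls, beside 2.21% of all tested loci, and in 24 between mutants. In the controls 24 of 31 small-subunit and 35 of 46 large-subunit members were called. When the libraries were scaled to equal summed FPKM, the share of all called loci that were higher in the dnEGFR line moved from 45.6 to 63.6% for controls and from 47.3 to 65.0% for mutants, and all called members were still higher.

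**Figure D3:**
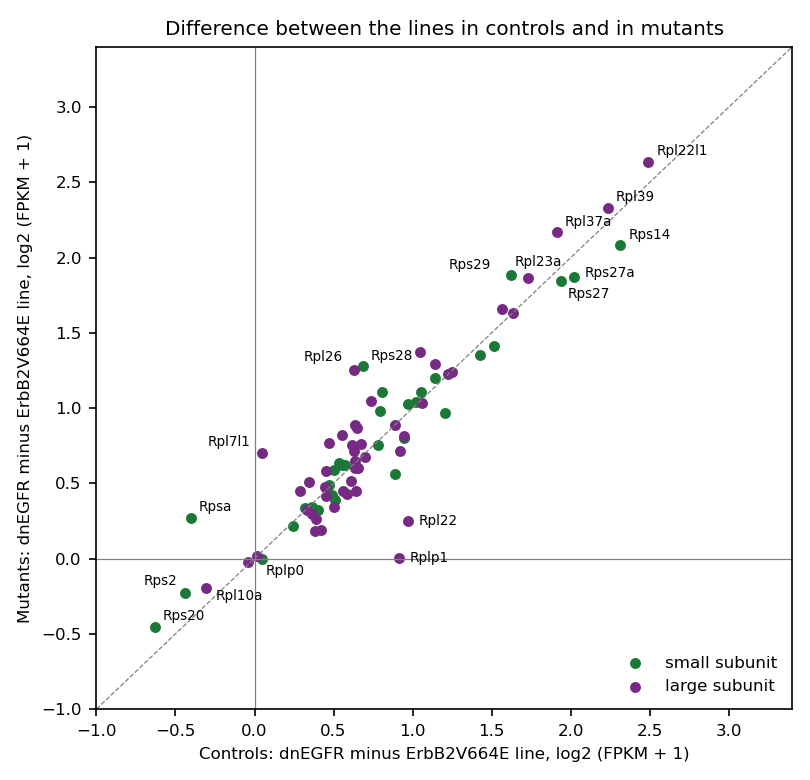
Log2 difference in FPKM + 1 between the dnEGFR and ErbB2V664E lines, in controls (horizontal) and in mutants (vertical), for the 77 canonical members and the tested paralogues; the dashed line marks equal values. Most points lie above 0 on both axes, from Rps20 at the lower left to Rpl22l1 at the upper right.

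Among small-subunit genes the largest difference was that of Rps14, a protein of the platform of the small subunit. Rps14 was at 76.7, 74.3 and 86.4 FPKM in dnEGFR controls and 81.2, 74.7 and 82.2 in dnEGFR mutants, but at 15.1, 15.5 and 14.7 in ErbB2V664E controls and 16.4, 17.6 and 20.0 in ErbB2V664E mutants. The line difference was 2.31 in controls and 2.08 in mutants (SE 0.10 each, limma adjusted p = 7.0e-07 and 1.41e-06). The lowest dnEGFR library thus held several times the level of the highest ErbB2V664E library. Rps27a, which is translated as a fusion of ubiquitin and a ribosomal protein, was at 37.5, 38.3 and 44.5 FPKM and 42.3, 40.4 and 37.4 FPKM in dnEGFR controls and mutants. In the ErbB2V664E line it was at 9.09, 9.16 and 8.99 FPKM and 10.6, 9.73 and 10.3 FPKM, a difference of 2.02 in controls and 1.87 in mutants (SE 0.09 each). The lines did not overlap for Rps14 or Rps27a. Mutants and controls overlapped for both genes in the dnEGFR line. In the ErbB2V664E line the mutants lay above all controls, by 0.24 for Rps14 (SE 0.10) and 0.15 for Rps27a (SE 0.09). Neither was called (limma adjusted p = 0.36 and 0.532).

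Further small-subunit members showed the same order with smaller steps. Rps4x, the X-linked member, was higher by 0.97 in the dnEGFR controls (SE 0.08, limma adjusted p = 7.85e-05). Rps24 was higher by 1.02 (SE 0.10), at 60.4 ± 4.39 FPKM in ErbB2V664E controls and 123 ± 6.81 FPKM in dnEGFR controls (SD, n = 3 each). Rps3a1, the most abundant member, differed by 0.40 (SE 0.08, limma adjusted p = 0.00852) and Rps6 by 0.32 (SE 0.09, limma adjusted p = 0.0306).

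In the large subunit, Rpl39, a small protein of the exit tunnel, had the largest canonical difference. It was at 16.3, 21.9 and 23.9 FPKM in dnEGFR controls and 20.2, 25.9 and 22.9 in dnEGFR mutants, but at 3.89, 2.83 and 4.08 in ErbB2V664E controls and 3.75, 3.19 and 4.36 in ErbB2V664E mutants. That gave 2.23 in controls and 2.33 in mutants (SE 0.17 each), again without overlap. Rpl37a followed with 1.91 in controls and 2.17 in mutants (SE 0.13 each), Rpl23a, which forms part of the docking site for the signal recognition particle, with 1.73 and 1.86, and Rpl9 with 1.63 in both. Rpl10, which joins at the last steps of large-subunit maturation, differed by 1.57 and 1.66, and Rpl7, Rpl27a and Rpl8 by 1.22, 1.25 and 0.89 in controls. All of these were called in both comparisons by limma, with adjusted p between 6.09e-06 and 0.000131.

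A small number of members did not share the difference. Rplp0 was level between the lines, 0.02 in controls and 0.02 in mutants, with a 95% interval from -0.18 to 0.21 in each. Rps12 and Rpl13 had 0.05 and -0.04 in controls (SE 0.11 and 0.10), counted without their pseudogenes. Canonical members with a lower value in the dnEGFR controls were Rps20, Rps2, Rpsa, Rpl10a and Rpl13, 5 in all and none called. Rps20 was at 4.42, 8.56 and 8.02 FPKM in dnEGFR controls, 5.72, 9.97 and 7.09 in dnEGFR mutants, 10.9, 9.14 and 13.4 in ErbB2V664E controls and 10.2, 10.7 and 10.7 in ErbB2V664E mutants. All controls and all mutants of the dnEGFR line lay below those of the ErbB2V664E line for Rps20, but the differences of -0.63 and -0.45 (SE 0.24 each) missed the threshold (limma adjusted p = 0.0883 and 0.196). Rps12, Rps20, Rps2, Rpl10a and Rpl13 were singled out here after their values were seen.

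**Figure D4:**
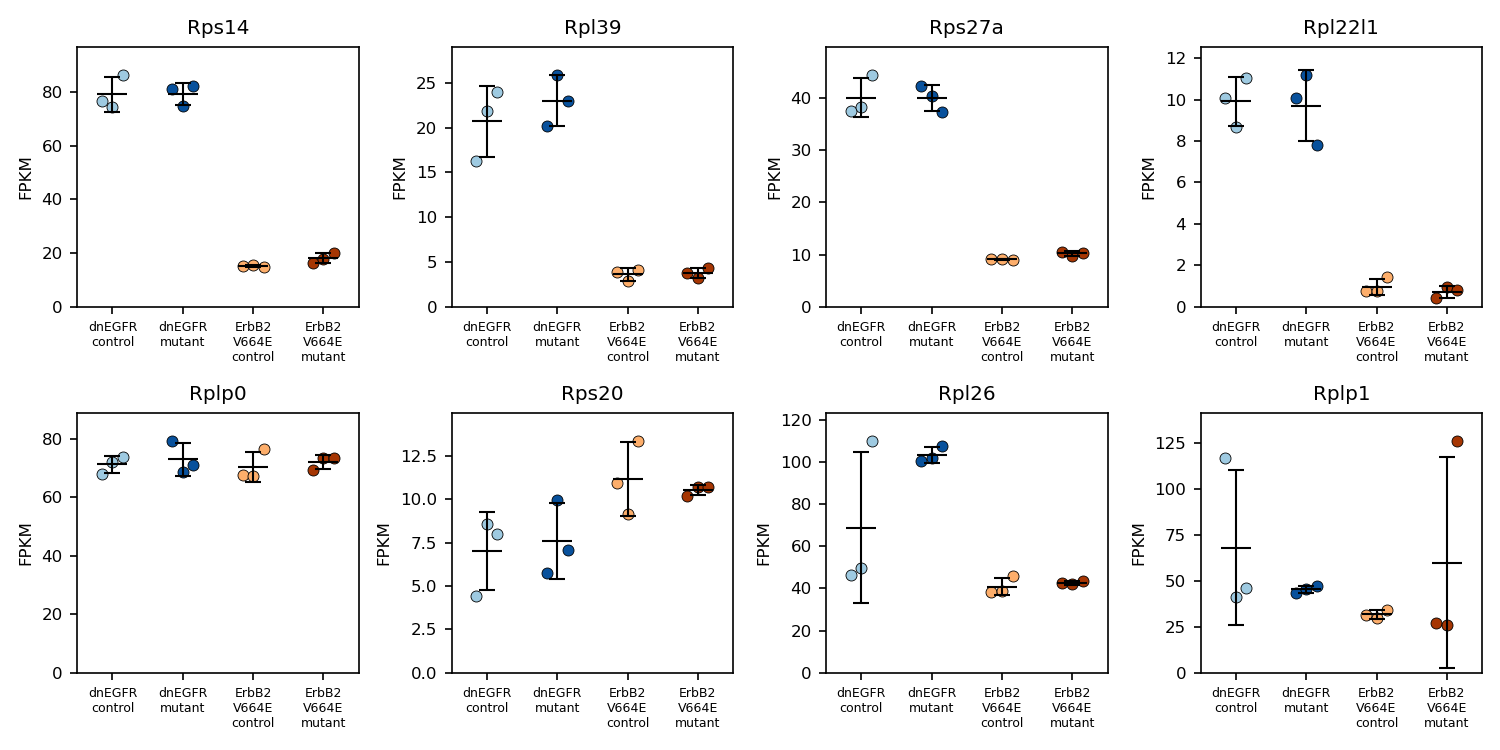
FPKM of 8 ribosomal protein genes in each library; points are libraries, horizontal lines group means and bars ± 1 SD (n = 3), and each vertical axis starts at 0. Rps14, Rpl39, Rps27a and Rpl22l1 separate the lines, Rplp0 and Rps20 do not follow that order, and Rpl26 and Rplp1 hold single libraries far from their group.

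The order of the canonical members by level was nearly the same in mutants and littermates, with a Spearman coefficient over 77 genes of 0.986 in the dnEGFR line and 0.988 in the ErbB2V664E line. Across the lines it was 0.839 to 0.852. These coefficients are across genes, which are not independent replicates. Within a group the ratio of the highest to the lowest library had a median of 1.144 to 1.229 over the canonical members. It passed 2 for Rpl26, Rpl35a and Rplp1 in the dnEGFR controls and for Rplp1 in the ErbB2V664E mutants.

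Libraries also differed as wholes. In dnEGFR control 1, 66 of 77 canonical members were below the group mean, with a median deviation of -0.12 on the log2 scale, and in dnEGFR control 3 only 6 were, with a median of 0.12. Among the ErbB2V664E controls, control 3 had 10 of 77 below the group mean, with a median of 0.11. The median deviation over all loci was 0.00 in dnEGFR control 1, and 0.00 and -0.01 in the other controls named. These spreads between littermate controls are as large as the median differences between mutants and controls given above. Choroid plexus marker sums ranged from 19.6 to 712 FPKM among the dnEGFR controls, and their part in these deviations was not tested.

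Paralogues of ribosomal proteins are known to replace their partners in some tissues. Rpl22l1, the paralogue of Rpl22, had the largest line difference of any tested member. It was at 10.1, 8.67 and 11.0 FPKM in dnEGFR controls and 10.1, 11.2 and 7.83 in dnEGFR mutants, but at 0.738, 0.738 and 1.41 in ErbB2V664E controls and 0.406, 0.968 and 0.787 in ErbB2V664E mutants. The differences were 2.49 and 2.64 (SE 0.18 each, limma adjusted p = 3.35e-05 and 2.32e-05), values that the added 1 FPKM makes smaller for so low a level. The ratio of Rpl22l1 to Rpl22 was 0.891 ± 0.0521 in dnEGFR controls and 1.18 ± 0.261 in dnEGFR mutants, but 0.194 ± 0.101 in ErbB2V664E controls and 0.106 ± 0.0433 in ErbB2V664E mutants (SD, n = 3 each). No library of the ErbB2V664E line reached the ratio of any dnEGFR library, while the ranges of mutants and controls overlapped in each line.

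Rps27l, a paralogue of Rps27 known as a p53 target, showed the reverse in its ratio. It was higher in the dnEGFR line, by 0.80 in controls and 0.98 in mutants (SE 0.18 each, limma adjusted p = 0.0126 and 0.00394). Rps27 differed by more, 1.94 and 1.85 (SE 0.21 each), from 28.2, 35.2 and 45.7 FPKM in dnEGFR controls to 9.36, 7.47 and 8.94 FPKM in ErbB2V664E controls. The mean ratio of Rps27l to Rps27 was lower in the dnEGFR line, 0.169 ± 0.00516 in controls and 0.164 ± 0.0385 in mutants, beside 0.359 ± 0.0454 and 0.271 ± 0.0594 in the ErbB2V664E line (SD, n = 3 each). The lines did not overlap in controls but did in mutants, where the highest dnEGFR ratio was 0.207 and the lowest ErbB2V664E ratio 0.202. These ratios leave out Rps27rt, from the list of other cytosolic ribosomal proteins. Rps27rt was at 79.6, 98.9 and 119 FPKM in dnEGFR controls and 103, 100 and 113 in dnEGFR mutants. In the ErbB2V664E line it was at 0, 17.2 and 21.9 FPKM in controls and 16.6, 0 and 26.0 in mutants. Exchange of fragments between Rps27 and Rps27rt was not tested. Rpl7l1 was called between mutants only, at 0.70 (SE 0.15, limma adjusted p = 0.00769) beside 0.05 in controls (SE 0.15).

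The first 120 coding bases of Rps27 and Rps27l are set beside each other to show how far reads can tell such a pair apart (GENCODE M21, 5′ to 3′, positions 1 to 120, capitals mark the 28 positions at which the genes differ).
Rps27: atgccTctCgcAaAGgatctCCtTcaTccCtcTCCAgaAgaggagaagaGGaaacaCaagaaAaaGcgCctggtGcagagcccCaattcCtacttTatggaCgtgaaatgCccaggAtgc
Rps27l: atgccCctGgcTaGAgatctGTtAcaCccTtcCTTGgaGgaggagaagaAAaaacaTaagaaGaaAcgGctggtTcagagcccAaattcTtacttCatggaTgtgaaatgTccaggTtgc
Over the whole coding sequence the pair shared 192 of 252 aligned bases (76.2%). Rpl22 and Rpl22l1 shared 73.5% and Rpl7 and Rpl7l1 63.4%.

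Promoter sequences of the members are described here, and their part in the line difference was not tested. RefSeq start sites on GRCm38.p6 were found for 57 of the 77 canonical members, and each table entry runs from 250 bases before to 50 after the start. The sequences below run from 25 bases before to 25 after it, 5′ to 3′ on the gene's strand, and capitals mark runs of at least 6 pyrimidines (C or T). Among the canonical members and tested paralogues with an entry, the first 6 have the largest line difference in controls and the last 3 the most negative values. Runs of this kind lie in the window in 3 of the first 6 and in 2 of the last 3.
Rpl22l1 (chr3:28805483-28805532, plus strand): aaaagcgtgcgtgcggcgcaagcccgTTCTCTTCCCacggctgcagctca
Rpl39 (chrX:37085198-37085247, minus strand): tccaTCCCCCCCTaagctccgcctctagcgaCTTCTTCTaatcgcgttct
Rps27 (chr3:90213624-90213673, minus strand): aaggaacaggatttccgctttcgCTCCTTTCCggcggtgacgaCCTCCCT
Rpl37a (chr1:72711235-72711284, plus strand): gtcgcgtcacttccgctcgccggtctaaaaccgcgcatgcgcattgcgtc
Rpl9 (chr5:65391407-65391456, minus strand): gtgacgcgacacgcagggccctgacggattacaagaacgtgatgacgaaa
Rpl10 (chrX:74270791-74270840, plus strand): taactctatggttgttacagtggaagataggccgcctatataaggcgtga
Rpl10a (chr17:28328446-28328495, plus strand): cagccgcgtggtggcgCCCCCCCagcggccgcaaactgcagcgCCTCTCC
Rpsa (chr9:120127741-120127790, plus strand): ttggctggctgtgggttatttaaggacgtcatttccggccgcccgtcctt
Rps2 (chr17:24720038-24720087, plus strand): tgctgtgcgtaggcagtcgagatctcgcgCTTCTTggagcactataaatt

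A pyrimidine run of at least 8 bases on the gene's strand touched the stretch from 30 bases before to 30 after the start in 38 of 57 canonical members (66.7%), beside 27.2% of 27025 promoters in the table. Runs of at least 10 bases were found in 50.9%, beside 13.8%. The letters CGGAAG, searched on both strands over the whole entry, were present in 40 of 57 (70.2%), beside 17.2% of all promoters. TATAAA, searched in the same way, was present in 8.77%, beside 14.2%. A match is a description of the letters, and the listed start may not be the one used in white matter.

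**Figure D5:**
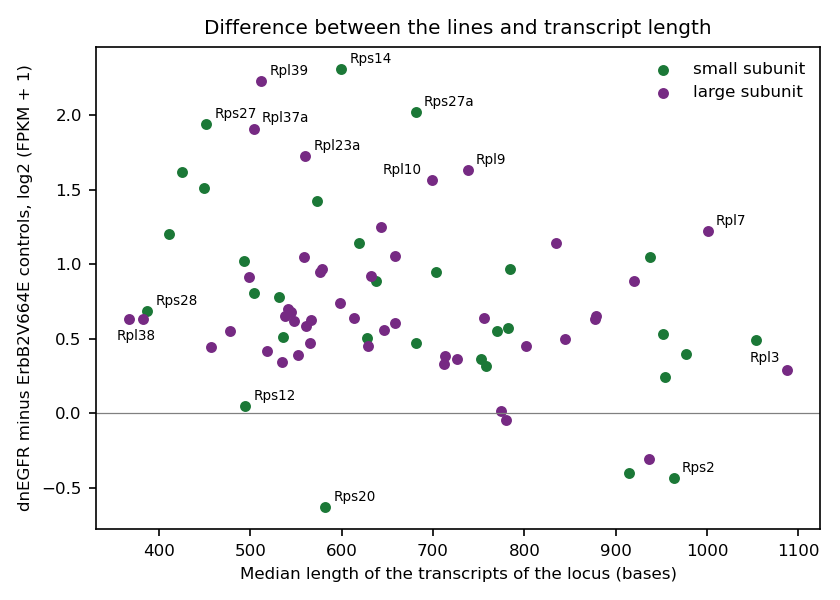
Log2 difference in FPKM + 1 between dnEGFR and ErbB2V664E controls (vertical) against the median length in bases of the annotated transcripts of the locus (horizontal) for the 77 canonical members. Members over 2-fold higher are found from under 500 to 1000.5 bases, and those under 0 lie at 582 bases or more.

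The line difference was somewhat greater in members with short transcripts, though not in steady order over the length ranges. Median transcript lengths of canonical members lay between 367.5 and 1087.5 bases, and the Spearman coefficient with the line difference over 77 genes was -0.32 in controls and -0.28 in mutants. The 12 members of up to 500 bases had a median difference of 0.80 in controls, the 23 from 500 to 600 bases 0.70, the 13 from 600 to 700 bases 0.89, the 13 from 700 to 800 bases 0.38 and the 16 longer ones 0.50. Other loci in the same length ranges had medians between -0.03 and 0.04. With the mean FPKM in ErbB2V664E controls, a level that itself enters the difference, the coefficient in controls was -0.33. The coefficient of length with the deviation of a single library from its group mean ranged over the 12 libraries from -0.46 in ErbB2V664E mutant 3 to 0.47 in ErbB2V664E control 2, and was -0.08 in ErbB2V664E control 1. The part of fragment length or RNA quality in these values was not tested.

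The 48 canonical members with pseudogenes named after them had 147 such -ps loci. Several of these loci were listed at 0 in some libraries and clearly above 0 in others of the same group. Rpl14-ps1 was at 50.8, 56.2 and 56.0 FPKM in dnEGFR controls, 0, 0 and 56.9 in dnEGFR mutants, 0, 0 and 0.373 in ErbB2V664E controls and 0, 0 and 50.3 in ErbB2V664E mutants. Rps2-ps13 was at 0, 18.7 and 21.4 FPKM in dnEGFR controls and 27.2, 3.55 and 27.7 in dnEGFR mutants, and the libraries low for it were those high for Rps2, at 75.0, 43.4 and 42.8 FPKM and 48.8, 88.0 and 47.1 FPKM. Rps27a-ps2 was at 31.0 FPKM in dnEGFR control 1 and listed at 0 elsewhere. When the -ps loci were added to their parent genes, the median line difference of these 48 members was 0.63 in controls, as it was without them, and 0.53 in mutants, beside 0.59 without them. Single genes moved more. In controls the value went from -0.44 to -0.24 for Rps2, from 0.38 to 1.71 for Rpl14, from 1.57 to 0.69 for Rpl10 and from 0.05 to -1.25 for Rps12. Rpl17 went from 0.63 to 0.02 and Rpl21 from 0.92 to 2.41 in controls. Between mutants of the lines Rpl10 was at 1.15 and Rps12 at -0.96 with their -ps loci added. Rpl27, called higher there without its -ps loci, went from 0.75 to -0.41. With the -ps loci 44 of the 48 line differences were positive in controls and 45 in mutants, beside 44 in each without them. Among the changes between mutants and littermates, Rpl14 went from 0.30 to 0.73 in the ErbB2V664E line and from 0.10 to -0.83 in the dnEGFR line. Rpl21 went from 0.25 to 1.54 in the ErbB2V664E line and from 0.045 to -0.54 in the dnEGFR line, where Rpl27 went from 0.08 to -0.55. Of the 48 members, 35 had positive changes in the ErbB2V664E line without and 31 with the -ps loci. In the dnEGFR line there were 37 in both cases. Rpl3 went from -0.34 to -0.17 in the ErbB2V664E line and Rpsa from 0.40 to 0.64 in the dnEGFR line. Of the canonical loci, 7 (Rpl13a, Rpl17, Rpl19, Rpl21, Rpl24, Rpl4 and Rpl8) also carry the symbol of another gene, so their values cannot be assigned to the ribosomal protein gene alone.

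A locus outside the family separated the lines still more. Gm28661 was listed at 5589 to 6563 FPKM in all 6 libraries of the ErbB2V664E line, 4.29 to 4.98% of their total, and at 0 to 0.000146 FPKM in the dnEGFR line. Its part in the ribosomal protein values was not tested beyond the scaling to equal totals and the centring on the median given with the alternatives.

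Genes that act with ribosomal proteins were read from lists. Between mutants and littermates, 0 of 5 other cytosolic ribosomal proteins, 0 of 19 translation factors with TOP messenger RNAs, 0 of 76 mitochondrial ribosomal proteins and 0 of 17 mTORC1 and TOP regulators were called by limma in either line, with 0, 1, 7 and 1 at an unadjusted p under 0.05 in the dnEGFR line and 0, 6, 2 and 2 in the ErbB2V664E line. Over all loci that share was 5.69% in the dnEGFR line and 12.1% in the ErbB2V664E line. Of 40 ribosome biogenesis factors 0 were called in the dnEGFR line (2 at an unadjusted p under 0.05) and 1 in the ErbB2V664E line. That was Heatr1, a factor for transcription and early processing of ribosomal RNA, which fell by 0.54 on the log2 scale, from 3.34 ± 0.202 to 1.99 ± 0.272 FPKM (SD, n = 3 each, SE 0.08, limma adjusted p = 0.0308).

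Between the controls of the lines these lists were split, beside 9.12% of all loci called higher and 10.9% called lower. Fau, a ribosomal protein outside the symbol rule, was higher in the dnEGFR line, 38.9 ± 3.66 FPKM beside 21.2 ± 4.22 FPKM (0.85, SE 0.14, limma adjusted p = 0.00318), the 1 call among 5 other cytosolic ribosomal proteins. Among the translation factors 5 were higher and 2 lower, with a median of 0.16: Eef1b2, a nucleotide exchange factor of elongation, and Naca, of the nascent chain complex, were higher by 0.83 and 0.70 (limma adjusted p = 0.000852 and 0.00121). Pabpc1, the poly(A)-binding protein, was lower, at 17.2 ± 0.682 FPKM beside 40.8 ± 3.12 FPKM (-1.20, SE 0.09, limma adjusted p = 5.28e-05). Mitochondrial ribosomal proteins had 15 higher and 1 lower of 76, with a median of 0.17, and biogenesis factors 8 higher and 1 lower of 40, with a median of 0.17. Of the mTORC1 and TOP regulators 0 were higher and 2 lower, the GTPase-activating subunit Tsc2 by -0.59 and the mTORC1 scaffold Rptor by -0.55 (limma adjusted p = 0.000808 and 0.0162). Oligodendrocyte markers had 1 lower of 10 in the same comparison, with sums of 1077 to 1261 FPKM in dnEGFR and 1212 to 1954 FPKM in ErbB2V664E controls. Astrocyte, microglia and endothelial markers had 1 lower each, and neuron and ependymal markers 1 higher and 1 lower each. Between the mutants 2 of 10 oligodendrocyte, 4 of 5 red cell and 4 of 5 ependymal markers were higher in the dnEGFR line and 1 ependymal marker was lower, beside 11.4% of all loci higher and 12.7% lower. Neuron markers had 2 higher and 1 lower there, microglia and dividing cell markers 1 higher each, and precursor and endothelial markers 1 lower each. Of the 5 dividing cell markers only 1 was tested. The part of cell composition in the line difference was not tested.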

How the data were processed

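Gene expression was measured by sequencing of polyadenylated RNA, and the authors deposited FPKM values for 33864 loci, made with StringTie according to the design text. HISAT is the other tool named in the submitters' processing notes. Versions, build and annotation are not given in these sources, and no strand-keeping step is named, so overlapping genes cannot be separated. FPKM divides by transcript length and library total, and near-identical copies can exchange fragments. Counts were not used. Fragment numbers were estimated from 14221 loci with 1 transcript, where the most common low product of FPKM and length was taken as 1 fragment. Of the low values, 37.7 to 41.1% fell on steps of this unit or midway between them (tolerance 0.01). Most low values did not, so the fragment numbers are approximate.

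Loci with at least 1 FPKM in 3 of 12 libraries (13803) entered limma 3.58.1 (R 4.3.3) on the log2(FPKM + 1) scale (1 mean per group over all libraries, 8 residual and 2.03 prior degrees of freedom, empirical Bayes with trend, two-sided, Benjamini-Hochberg over all tested loci, threshold 0.05). A fold on this scale understates changes of low genes. P-values reflect the spread between mice. The procedure was tested on simulated data. Python 3.11.15, pandas 2.3.3, numpy 2.4.6, scipy 1.17.1 and matplotlib 3.10.9 made the tables and figures. Transcript lengths and coding sequences came from GENCODE M21, promoters from RefSeq (GRCm38.p6).

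The members and the gene lists were chosen with earlier results of these data known. Named genes were members called, up to 15 by adjusted p, the 6 largest changes per line, genes of set roles, the 5 highest and 5 lowest members, those listed at 0, and up to 3 called genes a list. A few genes that the rule names are not reported here. The comparison of lines and the sums with -ps loci were added after the data had been seen. Numbers in the descriptions pair each mutant with its littermate control in 6 litters. Deviations from the group means correlated at -0.025 to 0.033 within these pairs.

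Alternatives were pseudocounts of 0.1 and 10, no filter, a mean of at least 10 FPKM, equal summed FPKM, median centring, quantile normalization, sums over all loci of a symbol, only the groups compared, litter as a block, and each library left out.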

Additional observations from a re-analysis of the deposited data

How the results depend on the processing

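With litter as a replicate block, which pairs each mutant with its littermate, 0 members were called in the dnEGFR comparison, the ErbB2V664E comparison and the difference between lines, and the loci called fell from 13 to 3, from 38 to 7 and from 16 to 4. Litters lie within a line, so the block could not be fitted between lines. Among loci with a mean of at least 10 FPKM, 5, 2 and 5 loci were called, and with only the groups compared 22 and 23. Leaving out each library gave 9 to 36, 16 to 262 and 15 to 42 loci, the 262 without ErbB2V664E mutant 1. Members called were 0 to 1 in the dnEGFR comparison and in the difference, 1 without dnEGFR control 3, and 0 to 0 in the ErbB2V664E comparison. The median member change lay between 0.0002 (without dnEGFR control 1) and 0.15 in the dnEGFR line and between 0.02 and 0.11 in the ErbB2V664E line.

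Between the lines, 2761 and 3329 loci were called in controls and mutants, 813 and 902 at a mean of at least 10 FPKM, and 1810 to 2787 and 2192 to 3227 with a library left out. Members called were then 47 to 59 and 52 to 61. The median difference of the members went from 0.64 to 0.47 with a pseudocount of 10 and to 0.75 with equal summed FPKM in controls. In mutants it went from 0.68 to 0.48 and 0.81. When median centred it was 0.67 in controls and 0.69 in mutants. All 598 values of the 30 named line results kept their direction and their call. These results were picked for the smallest p in each comparison of these data, so that outcome says little about other members. With no filter 50 members were called in controls and 54 in mutants. The -ps loci were not among these alternatives, and values with them are given above.

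Of 1291 values of 62 named results, 1267 kept direction and call, 1 gained a call (Rpl26) and 23 changed sign, all for changes that were not called. With equal summed FPKM Rplp0 in the ErbB2V664E line was -0.0072 and Rpl41 in the dnEGFR line -0.0249. With quantile normalization they were -0.0151 and -0.077, and Rpl41 was -0.0173 when median centred. With a library left out, values in the ErbB2V664E line ranged from -0.22 to 0.0371 for Rpl41, from -0.24 to 0.88 for Rplp1 and from -0.15 to 0.0279 for Rplp2. In the dnEGFR line they ranged from -0.0443 to 0.11 for Rpl11, -0.14 to 0.10 for Rpl22l1, -0.16 to 0.26 for Rpl41, -0.0825 to 0.0551 for Rpl5, -0.0297 to 0.0736 for Rplp0, -0.69 to 0.0537 for Rplp1, -0.12 to 0.054 for Rplp2, -0.0892 to 0.20 for Rps27l and -2.18 to 0.13 for Rps3a2. The cause was not tested. Depth limits members near 1 FPKM, such as Rpl22l1 in the ErbB2V664E line.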

Other observations

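Heatr1 and Mki67 were lower in the ErbB2V664E mutants than in their littermates, the latter a marker of dividing cells at 1.09 ± 0.105 FPKM in controls and 0.265 ± 0.121 FPKM in mutants (SD, n = 3 each, log2 change -0.73, limma adjusted p = 0.0408). The 5 markers of dividing cells summed to 2.25 to 2.68 FPKM in those controls and 0.385 to 1.25 FPKM in the mutants. Only 1 of the 5, Mki67, passed the filter and was tested, at levels near or below 1 FPKM. The ribosomal protein genes had 0 of 83 calls in this comparison.

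Between the mutants of the 2 lines, 13 of 40 ribosome biogenesis factors were higher in the dnEGFR line and 1 was lower, beside 11.4% of all loci higher and 12.7% lower. Of the higher factors, Heatr1 differed by 0.83, the small-subunit export factor Ltv1 by 0.50 and the large-subunit factor Wdr12 by 0.56 (limma adjusted p = 0.000171, 0.00438 and 0.00462). Tpt1, a translationally controlled TOP gene, differed by 0.95 in the same comparison, at 93.3 ± 5.04 FPKM in dnEGFR mutants and 47.9 ± 2.54 FPKM in ErbB2V664E mutants (SD, n = 3 each, limma adjusted p = 0.000171). Mitochondrial ribosomal proteins had 14 higher and 7 lower of 76 there.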
